A study of Mus musculus with 8 samples.

Results

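Globin genes and 3 genes of red cell formation were followed in RNA from the whole pregnant mouse uterus at embryonic day 8 (E8), with the conceptuses inside it. The 10 genes were found by matching the Ensembl IDs of the 49585 genes in the deposited count table to GENCODE M21 symbols. They are 3 embryonic globins (Hba-x, Hbb-bh1 and Hbb-y), 4 adult globins (Hba-a1, Hba-a2, Hbb-bs and Hbb-bt), the transcription factors Gata1 and Klf1, and the haem synthesis enzyme Alas2. All 8 females were 8-week-old Foxp3DTR mice bred to BALB/c males, which differ in their tissue antigens, and all carried a diphtheria toxin receptor driven from the Foxp3 locus, which regulatory T cells use. The 4 females labelled DT received 1 µg of diphtheria toxin in the peritoneum at E1, E3, E5 and E7, and the 4 labelled PBS received the saline buffer on the same days. The protocol describes the toxin course as removing 85% of regulatory T cells. The DT-labelled uteri are numbered 1, 3, 4 and 5 and the PBS-labelled uteri 1, 2, 4 and 6, after their replicate numbers. Each library was taken to be 1 female, although the labels do not state it.

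Haemoglobin is built from 2 alpha-type and 2 beta-type globin chains, each holding a haem group. In the mouse embryo the first red cells, the primitive erythroid cells, form in the blood islands of the yolk sac and make the alpha-type zeta chain from Hba-x and the beta-type chains from Hbb-bh1 and Hbb-y. Hbb-bh1 is known to come on first and to give way to Hbb-y as these cells mature, while Hba-x gives way to the adult alpha genes. Definitive red cells make the adult globins, and maturing primitive cells also use the adult alpha genes. Young red cells in the mother's blood still hold adult globin RNA. Gata1 and Klf1 are the transcription factors that switch on globin and haem genes in both kinds of cell, and Alas2 is the red cell form of the first enzyme of haem synthesis.

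Total counts ranged from 94794512 to 109847604 reads per library. Foxp3 did not separate the groups. It measured 5.12, 5.10, 5.72 and 5.69 CPM (reads scaled to a common library size with TMM factors) in DT-labelled uteri 1, 3, 4 and 5, and 4.89, 4.36, 5.44 and 4.86 CPM in PBS-labelled uteri 1, 2, 4 and 6, so it gave no check of the labels. Markers of the uterus were high in every library, with desmin (Des) at 1799 to 2669 CPM across DT-labelled uteri and 2328 to 2851 CPM across PBS-labelled uteri. Markers of fetal tissue were not. Afp, the alpha-fetoprotein of the yolk sac, measured 0.347 to 0.759 CPM across DT-labelled uteri, and 7.56, 38.3, 0.425 and 0.964 CPM in PBS-labelled uteri 1, 2, 4 and 6. PBS-labelled uteri 1 and 2 therefore stand apart from the other PBS-labelled libraries. DT-labelled uterus 1 was low in the decidual prolactin Prl8a2, at 687 CPM against 3682 to 5666 CPM in the other 3 DT-labelled and 2893 to 8960 CPM across PBS-labelled uteri. The sample titles end in a suffix that the labels do not explain. It is S1 for PBS-labelled uteri 1 and 2, S2 for PBS-labelled uteri 4 and 6, S3 for DT-labelled uteri 1 and 3, and S4 for DT-labelled uteri 4 and 5. The libraries highest in Afp are thus those of suffix S1, though the others also held some reads of fetal and placental genes. Each suffix holds 1 treatment only, so suffix and treatment cannot be told apart between the groups. S1 and S2 are both PBS-labelled, so the difference between them lies within 1 treatment.

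The beta-type genes lie in a row on the minus strand of chromosome 7 (GRCm38), in the order Hbb-y (103851749 to 103853216), Hbb-bh1 (103841637 to 103843164), Hbb-bs (103826534 to 103828096) and Hbb-bt (103812524 to 103813996). The alpha-type genes follow each other on the plus strand of chromosome 11, with Hba-x at 32276400 to 32278116, Hba-a1 at 32283511 to 32284465 and Hba-a2 at 32296489 to 32297298. Gata1 is on chromosome X (7959260 to 7978071, minus strand), as is Alas2 (150547375 to 150570638, plus strand), and Klf1 is on chromosome 8 (84901928 to 84905291, plus strand). RefSeq windows of 300 bases, from 250 before to 50 after the RefSeq gene start (GRCm38.p6), matched 9 of the 10 genes. RefSeq starts can differ from the GENCODE positions above. The Hba-x window lies mostly within the GENCODE gene, and the Gata1 window (7967861 to 7968160) lies well inside it. The windows of both embryonic globins that matched, of the most abundant adult globin and of Alas2 are shown because their reads form the contrast described below. They are Hba-x at chr11:32276350-32276649 (plus strand), Hbb-y at chr7:103853158-103853457 (minus strand), Hbb-bs at chr7:103827879-103828178 (minus strand) and Alas2 at chrX:150547167-150547466 (plus strand). Capitals mark 3 motifs on either strand. GATAA, which reads TTATC on the opposite strand, is the core of the GATA factor motif. CACCC, which reads GGGTG there, is bound by Klf1 and related factors, and the last is CCAAT, which reads ATTGG.
Hba-x: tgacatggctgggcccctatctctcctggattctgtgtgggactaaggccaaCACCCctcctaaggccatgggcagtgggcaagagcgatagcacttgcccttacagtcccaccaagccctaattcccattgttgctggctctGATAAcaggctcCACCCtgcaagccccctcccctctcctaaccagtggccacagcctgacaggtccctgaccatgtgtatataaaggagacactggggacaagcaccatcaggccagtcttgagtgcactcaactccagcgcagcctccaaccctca
Hbb-y: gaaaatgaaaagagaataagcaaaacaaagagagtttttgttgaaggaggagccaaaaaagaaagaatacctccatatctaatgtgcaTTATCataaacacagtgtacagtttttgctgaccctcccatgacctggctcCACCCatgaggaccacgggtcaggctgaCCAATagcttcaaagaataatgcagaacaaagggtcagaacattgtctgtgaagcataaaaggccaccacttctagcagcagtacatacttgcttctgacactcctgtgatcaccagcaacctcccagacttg
Hbb-bs: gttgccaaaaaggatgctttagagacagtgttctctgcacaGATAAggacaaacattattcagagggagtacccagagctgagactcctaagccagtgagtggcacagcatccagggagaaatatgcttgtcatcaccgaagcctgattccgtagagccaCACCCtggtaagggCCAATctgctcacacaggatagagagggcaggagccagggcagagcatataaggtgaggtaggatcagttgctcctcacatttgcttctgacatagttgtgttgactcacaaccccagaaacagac
Alas2: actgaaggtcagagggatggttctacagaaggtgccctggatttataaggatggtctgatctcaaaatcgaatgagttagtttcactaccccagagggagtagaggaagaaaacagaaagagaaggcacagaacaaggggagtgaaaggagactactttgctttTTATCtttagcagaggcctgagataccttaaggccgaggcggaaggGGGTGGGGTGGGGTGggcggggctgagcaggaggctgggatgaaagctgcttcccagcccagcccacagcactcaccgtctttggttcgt
GATAA on either strand was present in 8 of the 9 windows, Gata1 being the exception, and in 25.4% of all 32851 windows in the table. CACCC was present in 9 of 9, against 57.5% of all windows, and CCAAT in 6 of 9, against 37.4%. These are matches of letters, and the windows of Hba-a1 and Hba-a2 share a run of 297 identical bases, so these counts hold that sequence more than once.

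Embryonic globin reads were found in numbers in PBS-labelled uteri 1 and 2 and were at or near 0 in the other 6 libraries. Hba-x, the zeta chain, had 0, 1, 1 and 3 reads in DT-labelled uteri 1, 3, 4 and 5, and 1685, 11636, 1 and 2 reads in PBS-labelled uteri 1, 2, 4 and 6. Both high values are PBS-labelled, but the other PBS-labelled libraries lie within the DT-labelled range. Hbb-bh1, the first beta-type chain of the embryo, had 0, 15, 0 and 48 reads across DT-labelled uteri, and 1908, 11017, 0 and 19 reads across PBS-labelled uteri, in the same replicate order. Hbb-y, the later embryonic chain, had 0, 2, 0 and 0 reads across DT-labelled uteri, and 166, 7213, 1 and 0 reads across PBS-labelled uteri. The groups overlapped for all 3 genes. Summed, the embryonic globins averaged 0.171 ± 0.231 CPM across DT-labelled uteri and 87.3 ± 148.4 CPM across PBS-labelled uteri (SD, n = 4 each), and the spread of the PBS-labelled group was wider than its mean. Without PBS-labelled uteri 1 and 2 the sums were 0.177 CPM across DT-labelled uteri and 0.113 CPM across PBS-labelled uteri. In bulk RNA, fewer cells of a type and less RNA per cell cannot be told apart.

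**Figure D1:**
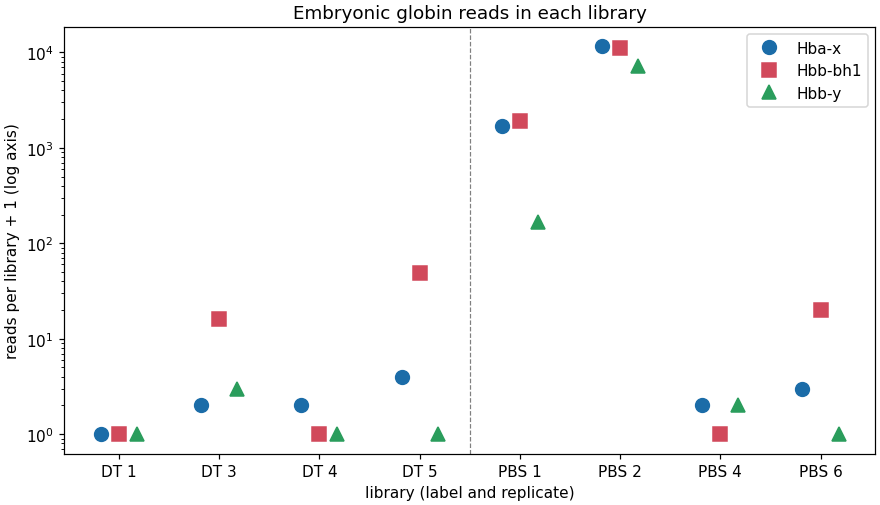
Reads of the 3 embryonic globins in each library (reads + 1, log axis), with the DT-labelled libraries left of the dashed line and the PBS-labelled libraries right of it. PBS-labelled uterus 2 holds 7213 to 11636 reads of each gene and PBS-labelled uterus 1 holds 166 to 1908, while no gene exceeds 48 reads elsewhere.

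The make-up of the embryonic reads differed between the libraries that held them. In PBS-labelled uterus 1 there were 0.087 Hbb-y reads for each Hbb-bh1 read, and in PBS-labelled uterus 2 there were 0.655. Hba-x and Hbb-bh1 had similar read numbers in both, with 0.883 and 1.06 Hba-x reads for each Hbb-bh1 read. Per length, as CPM per kilobase of exon, the levels in PBS-labelled uterus 2 were 185 for Hbb-bh1, 128 for Hba-x and 117.5 for Hbb-y. In PBS-labelled uterus 1 they were 33.9, 19.6 and 2.86 in the same gene order. Thus Hbb-bh1 was the highest of the 3 per length in both, and Hbb-y the lowest. Of the other 6 libraries, 3 held 15 or more Hbb-bh1 reads, and there Hbb-bh1 made up most of the embryonic reads. DT-labelled uterus 5 had 48 Hbb-bh1 reads beside 3 of Hba-x and 0 of Hbb-y, DT-labelled uterus 3 had 15 beside 1 and 2, and PBS-labelled uterus 6 had 19 beside 2 and 0. DT-labelled uterus 4 and PBS-labelled uterus 4 had 0 Hbb-bh1 reads, with 1 embryonic read in the DT-labelled and 2 in the PBS-labelled one, and DT-labelled uterus 1 had no embryonic read. None of the 75-base windows of these 3 transcripts occurs in another annotated transcript. The pseudogene Hbb-bh0, which lies between Hbb-bh1 and Hbb-y and was picked out after its values were seen, had 0 reads in all 4 DT-labelled libraries, and 148, 605, 0 and 0 reads in PBS-labelled uteri 1, 2, 4 and 6.

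Adult globins were detected in every library, DT-labelled uteri included, where embryonic reads were few. Among the PBS-labelled uteri all 4 adult genes were higher in uteri 1 and 2, which held the embryonic reads, than in uteri 4 and 6. Hbb-bs, a beta chain of the haplotype carried by the C57BL/6 reference genome, measured 18.2, 43.5, 81.2 and 40.1 CPM in DT-labelled uteri 1, 3, 4 and 5, and 46.6, 43.6, 18.0 and 12.6 CPM in PBS-labelled uteri 1, 2, 4 and 6. The highest value was in DT-labelled uterus 4 and the lowest in PBS-labelled uterus 6, and the groups overlapped. Hba-a1, an alpha chain, measured 3.34, 7.67, 14.8 and 6.84 CPM across DT-labelled uteri, and 10.1, 13.8, 2.93 and 2.43 CPM across PBS-labelled uteri. Hbb-bt, the second adult beta gene, ranged from 3.02 to 14.5 CPM across DT-labelled uteri and from 1.64 to 6.38 CPM across PBS-labelled uteri. Hba-a2, the second adult alpha gene, ranged from 1.86 to 7.98 CPM across DT-labelled uteri and from 1.15 to 10.4 CPM across PBS-labelled uteri. All 4 genes overlapped between the groups. The summed adult globins averaged 65.2 ± 38.6 CPM across DT-labelled uteri and 47.0 ± 29.0 CPM across PBS-labelled uteri (SD, n = 4 each), and without PBS-labelled uteri 1 and 2 they averaged 67.4 CPM across DT-labelled uteri and 22.9 CPM across PBS-labelled uteri.

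**Figure D2:**
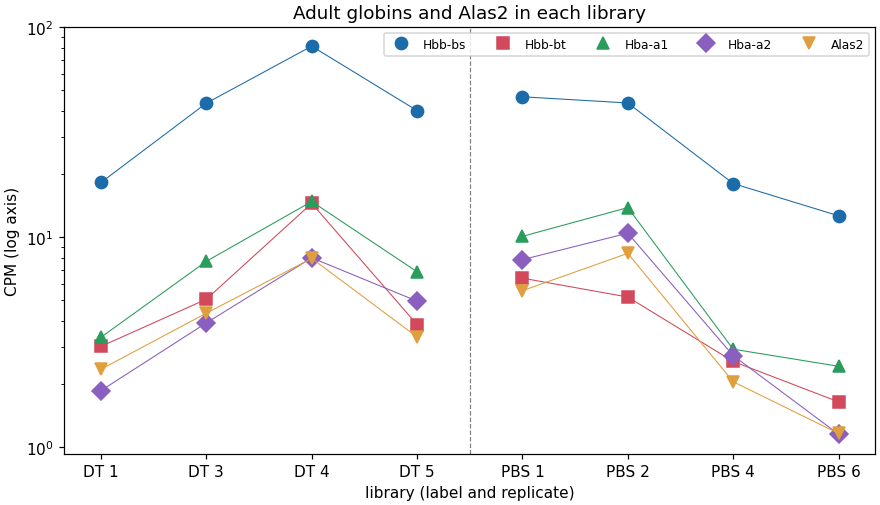
CPM of the 4 adult globins and of Alas2 in each library (log axis), with the DT-labelled libraries left of the dashed line; thin lines join libraries only to guide the eye. All 5 genes are highest among the DT-labelled libraries in replicate 4, where Hbb-bs reaches 81.2 CPM, and lowest among the PBS-labelled libraries in replicate 6.

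Reads of the paired adult genes could not be placed with certainty. Hba-a1 shares 67.9% of its 75-base windows with Hba-a2, which shares 84.6% of its own. Hbb-bs shares 51.5% with Hbb-bt, which shares 56.6%. How reads that fit both were counted is not given in the sources used here, so the adult levels may be too low and their split uneven. BALB/c mice carry another beta haplotype than the reference genome, and the reads of paternal adult beta genes may map less well. With this limit, Hbb-bs had 5.60 to 10.45 reads for each Hbb-bt read across DT-labelled uteri and 7.04 to 8.40 across PBS-labelled uteri. Adult alpha reads per adult beta read lay between 0.238 and 0.269 across DT-labelled uteri. In the PBS-labelled libraries this ratio was 0.338, 0.498, 0.275 and 0.251 in uteri 1, 2, 4 and 6, highest in the libraries that also held the embryonic reads.

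The share of embryonic genes among all globin reads sets the 2 families side by side. It was 0%, 0.298%, 0.00861% and 0.881% in DT-labelled uteri 1, 3, 4 and 5, and 36.6%, 80.8%, 0.0720% and 1.10% in PBS-labelled uteri 1, 2, 4 and 6. The Wilson 95% intervals, which cover counting error only, were 35.7% to 37.5% for PBS-labelled uterus 1 and 80.4% to 81.2% for PBS-labelled uterus 2. In DT-labelled uterus 1, 0 of 3398 globin reads were embryonic. The Wilson upper limit there was 0.113%, and a floor of 3 counts would be a share of 0.0883%. Depth therefore does not limit the contrast between these 2 libraries and the rest. All globins together took from 0.00309% to 0.0123% of the reads across DT-labelled uteri and from 0.00184% to 0.0345% across PBS-labelled uteri. DT-labelled uterus 4, with the most adult globin reads (11616), had 1 embryonic read, and PBS-labelled uterus 2, with the most embryonic reads (29866), had 7080 adult ones. Averaged by group, the embryonic share was 0.297% across DT-labelled uteri and 29.65% across PBS-labelled uteri, and without PBS-labelled uteri 1 and 2 it was 0.297% across DT-labelled uteri and 0.585% across PBS-labelled uteri. The difference between the families in their response to treatment was not tested.

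**Figure D3:**
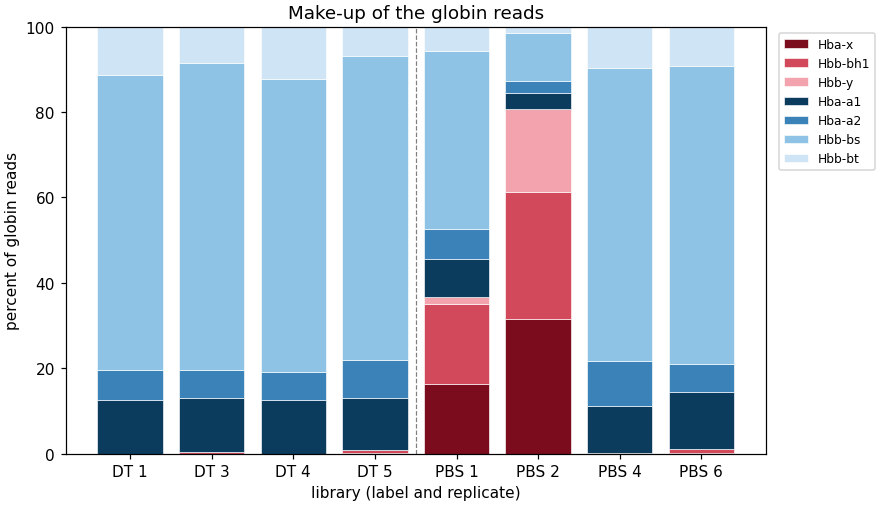
Share of the globin reads taken by each of the 7 globin genes in each library (stacked to 100%), with embryonic genes in red and adult genes in blue and the DT-labelled libraries left of the dashed line. Embryonic genes take 36.6% in PBS-labelled uterus 1 and 80.8% in PBS-labelled uterus 2, against at most 1.10% in the other 6 libraries.

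Alas2 varied as the adult globins did, and Alas2, Gata1 and Klf1 were all highest in PBS-labelled uterus 2. Alas2 measured 2.35, 4.35, 7.93 and 3.35 CPM in DT-labelled uteri 1, 3, 4 and 5, and 5.56, 8.38, 2.05 and 1.16 CPM in PBS-labelled uteri 1, 2, 4 and 6. There were 6.01 to 8.89 Alas2 reads for every 100 adult globin reads across DT-labelled uteri and 6.50 to 11.5 across PBS-labelled uteri, a narrow range beside the spread of the levels themselves, with PBS-labelled uterus 2 at the top. Exons of Alas2 overlap those of Apex2 and Mir3620 on the opposite strand, and 9.92% of its windows are shared with Apex2, so some of its reads may be theirs. Gata1 measured 0.257, 0.410, 0.0918 and 0.427 CPM across DT-labelled uteri and 0.479, 1.55, 0.0472 and 0.189 CPM across PBS-labelled uteri. Klf1 measured 0.241, 0.240, 0.214 and 0.136 CPM across DT-labelled uteri and 0.490, 1.43, 0.170 and 0.198 CPM across PBS-labelled uteri. Both rested on few reads, from 5 to 150 per library for Gata1 and from 14 to 139 for Klf1. For Klf1 PBS-labelled uteri 1 and 2 were the highest of the 8 libraries, and the other 2 PBS-labelled libraries lay within the DT-labelled range.

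No member passed the main test between the groups. Of the 8 members that passed the filter on low counts, 0 were called (edgeR, adjusted p under 0.05), beside 0.326% of the 22693 genes tested (0.322% higher and 0.00441% lower). 1 had an unadjusted p under 0.05, as did 8.69% of all genes tested. For 0 of these 8 did the groups not overlap, beside 5.06% of all genes tested. Hba-x and Hbb-y did not pass the filter because only 2 libraries held reads in numbers. Hbb-bh1 had a log2 fold change (DT minus PBS) of -7.80 ± 2.47 (SE; edgeR adjusted p = 0.497) with a 95% interval of -13.47 to -2.13. Klf1 had one of -1.45 ± 0.68 and Gata1 one of -0.92 ± 0.90 (edgeR adjusted p = 0.571 and 0.668). Among the adult genes the log2 fold changes were 0.60 ± 0.53 for Hbb-bs, 0.74 ± 0.59 for Hbb-bt, 0.16 ± 0.64 for Hba-a1 and -0.24 ± 0.68 for Hba-a2, and Alas2 had 0.07 ± 0.62 (edgeR adjusted p from 0.621 to 0.968). The intervals of these 5 genes reach from -1.80 at the lowest to 2.10 at the highest, so changes of that size are not shown to be absent.

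The tools differed on the embryonic genes. With no filter on low counts all 10 members were tested and 0 were called by edgeR (adjusted p = 0.644 for each embryonic globin), beside 0.185% of genes. DESeq2 gave adjusted p-values for 9 members and called 1, Hba-x (log2 fold change -11.475, adjusted p = 7.13e-05), beside 1.32% of genes, and gave none for Hbb-y. limma voom called 0 of 8, beside 0.229%. Without PBS-labelled uteri 1 and 2, the sign of Hbb-bh1 turned (log2 fold change 0.745, edgeR unadjusted p = 0.701), and so did those of Hba-a2, Gata1 and Klf1 (1.26, 1.31 and 0.17). In that fit the adult genes Hba-a1, Hbb-bs and Hbb-bt had log2 fold changes of 1.60, 1.57 and 1.64 and Alas2 one of 1.48, with edgeR unadjusted p from 0.0297 to 0.0593. Again 0 of 8 members were called by edgeR, beside 0.00426% of genes, and the PBS-labelled group then held 2 libraries.

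**Figure D4:**
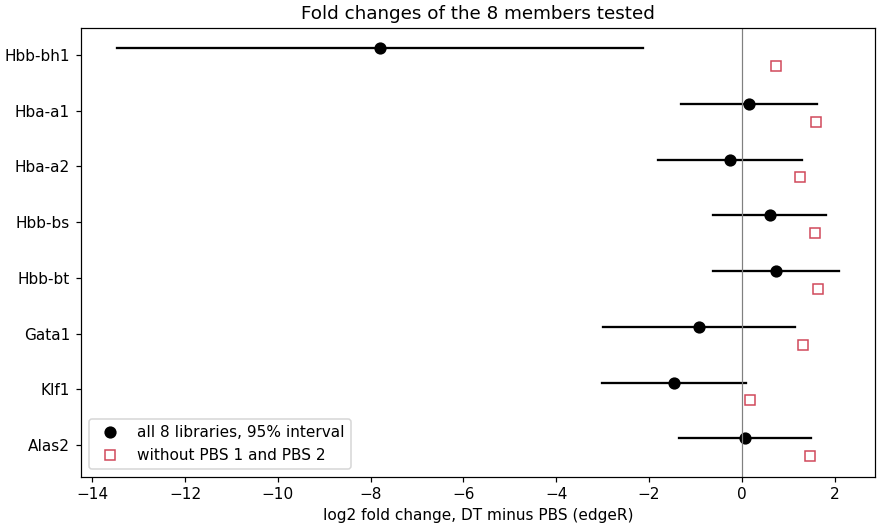
Log2 fold change (DT minus PBS) of the 8 members tested, from edgeR with all 8 libraries (black points, bars are 95% intervals) and without PBS-labelled uteri 1 and 2 (open squares). With all libraries only the interval of Hbb-bh1 (-13.47 to -2.13) leaves out 0, and without these libraries its value is 0.745.

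No other gene of red cell formation was called by edgeR. Over the 16 lists of pathway and marker genes, 0 of 140 tested genes were called by edgeR and 0 by limma voom, beside 0.326% and 0.229% of all genes tested. At an edgeR unadjusted p under 0.05 there were 32 (the share over all genes tested was 8.69%). DESeq2, which also tested genes below the filter, called 11 of the 162 list genes in the count table, beside 1.32% of all genes it tested. Among 11 erythroid transcription factors the median log2 fold change was -0.12, against 0.01 over all genes tested. Lmo2, a bridging partner of Gata1, had 0.41 ± 0.10 and was the 1 gene of this list called higher by DESeq2, whereas Myb, a factor of early progenitors, had -0.76 ± 0.26 and Foxo3 -0.21 ± 0.09. Of 16 red cell membrane genes, 14 had a negative value (median -0.44), and PBS-labelled uteri 1 and 2 were the 2 highest libraries for 6 of the 17 in the table. Slc4a1, the band 3 anion exchanger, measured 0.265, 0.510, 1.05 and 0.214 CPM in DT-labelled uteri 1, 3, 4 and 5, and 1.59, 15.7, 0.142 and 0.1795 CPM in PBS-labelled uteri 1, 2, 4 and 6. PBS-labelled uterus 2 was the highest library for Slc4a1, and Sptb, the beta spectrin, had a log2 fold change of -0.40 ± 0.18. The log2 fold change of Slc4a1 without PBS-labelled uteri 1 and 2 was 1.64 and that of Sptb -0.16, and the median of the list was 0.02.

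The 13 haem synthesis and transport genes had a median log2 fold change of -0.16, with -0.37 ± 0.20 for Fech, which inserts the iron, -0.27 ± 0.14 for Cpox and -0.22 ± 0.10 for Abcb10. The 9 iron genes had a median of -0.09, with Tfrc, the transferrin receptor, at -0.42 ± 0.17, Steap3 at -0.35 ± 0.20 and Aco1 at -0.09 ± 0.05. Among 7 tested genes of haemoglobin stability and red cell enzymes the median was -0.23, with Hemgn at -1.35 ± 0.47, catalase (Cat) at -0.23 ± 0.09 and Prdx2 at -0.16 ± 0.11. In the list of erythropoietin and Kit signalling (9 tested, median -0.03), the erythropoietin receptor Epor had -0.73 ± 0.45, Kit -0.71 ± 0.36 and Cish 0.40 ± 0.15. Epo itself had 0 to 3 reads in each library. The values without PBS-labelled uteri 1 and 2 were -0.50 for Hemgn, -0.09 for Tfrc, 0.23 for Epor and -0.24 for Kit. The 5 neighbours of the alpha-globin genes had a median of 0.095, with Rhbdf1 at 0.10 ± 0.15, Mpg at 0.09 ± 0.10 and Il9r at 0.15 ± 0.26. Of the other globins, Mb, Cygb and Ngb, which act outside red cells, had 0.65, 0.39 and -0.06. Clearance of haem and haemoglobin (10 genes) had a median of -0.02, with the iron exporter Slc40a1 at 0.47 ± 0.12, Flvcr1 at -0.18 ± 0.07 and Hpx at 0.73 ± 0.34. None of these genes passed by edgeR. DESeq2 called Slc40a1 higher and the pseudogene Hbb-bh0 of the globin list lower (adjusted p = 3.54e-10), with 0 reads in every DT-labelled library.

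Markers of fetal and placental cells were highest in the same libraries as the embryonic globins. PBS-labelled uteri 1 and 2 were the 2 highest libraries for 10 of 12 yolk sac endoderm genes and 9 of 11 trophoblast genes, for 5 of 8 haemangioblast and early blood genes and 4 of 9 mesoderm and heart genes, and for 19.9% of all genes tested. Their part in the globin result was not tested. Apoa4, an apolipoprotein of the yolk sac, measured 0.0622 to 0.200 CPM across DT-labelled uteri, and 2.23, 6.26, 0.161 and 0.406 CPM in PBS-labelled uteri 1, 2, 4 and 6. Cubn, the yolk sac receptor cubilin, measured 2.09 to 3.98 CPM across DT-labelled uteri, and 22.0, 45.5, 2.64 and 5.30 CPM across PBS-labelled uteri. The 12 yolk sac genes had a median log2 fold change of -2.71, and 9 were lower at an unadjusted p under 0.05, as were 3.97% of all genes tested. Without PBS-labelled uteri 1 and 2 the median was -0.24 and 0 were lower at that p. Summed over the list they took 82.8 to 162 CPM across DT-labelled uteri and 76.8 to 275 CPM across PBS-labelled uteri, and Spink1, up to 124 CPM in DT-labelled uterus 1, went against the rest. Among 9 tested trophoblast genes the median was -2.08, with Tpbpa at -3.37 ± 0.99, Prl2c2 at -4.30 ± 1.67 and Prl3b1 at -2.78 ± 1.06. Without PBS-labelled uteri 1 and 2 the trophoblast median was 0.58, with Tpbpa at -0.50, Prl2c2 at 0.58 and Prl3b1 at -0.50. The summed trophoblast level was 13.8, 53.2, 28.3 and 43.3 CPM in DT-labelled uteri 1, 3, 4 and 5, and 190.5, 473, 10.8 and 25.3 CPM in PBS-labelled uteri 1, 2, 4 and 6. Synb had 0 reads in every library and Gcm1 had 0 in the DT-labelled ones. DESeq2 called Afp, Apoa4, Hnf4a, Tpbpa and Gcm1 lower, and edgeR called none of these 5.

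**Figure D5:**
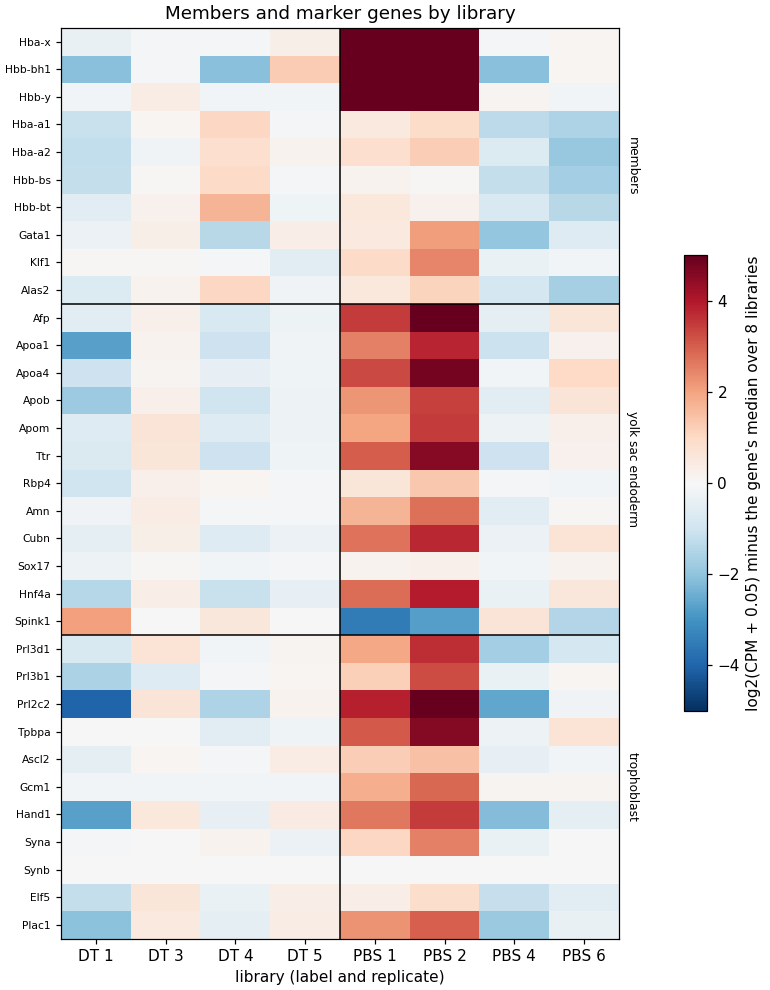
Level of the 10 members and of yolk sac endoderm and trophoblast genes in each library, as log2(CPM + 0.05) minus the gene's median over the 8 libraries, with colours limited at 5 in either direction and the DT-labelled libraries left of the line. PBS-labelled uteri 1 and 2 are the 2 highest for 10 of the 12 yolk sac genes and 9 of the 11 trophoblast genes, while Hbb-bs is highest in DT-labelled uterus 4.

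None of the genes of the heart, blood and uterine lists passed by edgeR. Myl7, a light chain of the embryonic heart muscle, had a log2 fold change of -2.69 ± 0.97, Tnnt2 -0.68 ± 0.21 and Meox1 -0.26 ± 0.11, among 7 mesoderm and heart genes with a median of -0.305. Of these, 5 had a negative value and 2 a positive one, T at 0.085 ± 0.54 and Tbx6 at 0.42 ± 0.32. Leaving out PBS-labelled uteri 1 and 2 gave -0.07 for Myl7, -0.33 for Tnnt2 and -0.265 for Meox1. In the haemangioblast list (7 tested, median -0.24) Kdr had -0.21 ± 0.08, Cd34 -0.24 ± 0.09 and Tek -0.29 ± 0.15. The platelet list had a median of -0.03, with Itgb3 at -1.002 ± 0.44, Itga2b at 0.30 ± 0.15 and Pf4 at -0.17 ± 0.20. Among 7 tested neutrophil genes the median was 0.12. At an edgeR unadjusted p under 0.05 there were 3 higher genes and 2 lower ones, beside 4.72% and 3.97% of all genes tested. Ngp, Retnlg and S100a9 had 2.41 ± 0.43, 1.93 ± 0.46 and 1.72 ± 0.41, which DESeq2 called higher and edgeR did not. The lower genes, named after their values were seen, were Ly6g at -4.55 and Mpo at -1.41. Ly6g measured 4.81 and 3.95 CPM in PBS-labelled uteri 4 and 6 and at most 0.107 CPM elsewhere. The 8 decidual stroma genes had a median of -0.11, with Pgr at -0.24 ± 0.14, Wnt4 at 0.23 ± 0.20 and Prl8a2 at -0.72 ± 0.60. The lists sum cells of the mother and the conceptus, and which of them the reads came from was not tested.

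The genes whose levels varied over the 8 libraries most as Hbb-bh1 did included trophoblast prolactins. Likeness was the root mean square difference of log2 CPM, each gene centred on its mean, over 8 libraries and among the 13823 named genes whose mean log2 CPM reached 0. Hbb-bh1 itself varied by 4.46 on this scale. The nearest was Prl2c3, a trophoblast prolactin, at 1.265, followed by the steroid enzyme Cyp17a1 at 1.43, Rimklb at 1.44, Rhox9 at 1.55, the prolactin Prl7d1 at 1.64, Rhox6 at 1.73, Prl2c2 at 1.75 and Ceacam9 at 2.01. Prl2c3 and Prl2c2 are near-identical relatives, and their split of reads is uncertain. Prl2c3 measured 0.226, 2.96, 0.408 and 3.21 CPM in DT-labelled uteri 1, 3, 4 and 5, and 56.2, 217, 0.349 and 2.94 CPM in PBS-labelled uteri 1, 2, 4 and 6. It was thus high where Hbb-bh1 was, and among the other libraries above 2 CPM in the same 3 that held 15 to 48 Hbb-bh1 reads. The 7 other members that passed the filter lay between 3.41 for Gata1 and 4.42 for Hbb-bt. Hba-x and Hbb-y were below the filter and were not measured on this scale.

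For Hbb-bs, the adult globin with the most reads, 4 members were nearer than any of the 13823 other genes. They were Hbb-bt at 0.27, Hba-a1 at 0.29, Alas2 at 0.35 and Hba-a2 at 0.47, while Hbb-bs itself varied by 0.85. Hbb-bt shares windows with Hbb-bs, which may add to its likeness, but Hba-a1, Hba-a2 and Alas2 do not. The nearest other genes were Egln3, an oxygen-sensing enzyme, at 0.48, the interferon-induced gene Mx2 at 0.51, Cts8 at 0.54, Fcgr4, Oas3 and Rmrp at 0.55, and Cts7 and Cd274 at 0.565. Klf1 and Gata1 stood at 1.09 and 1.35, and Hbb-bh1 at 4.28.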

How the data were processed

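RNA was sequenced from the whole uterus with the conceptuses, in 4 DT-labelled and 4 PBS-labelled libraries. The authors deposited raw counts for each Ensembl ID, not normalized. Trimmomatic, HISAT2, SAMtools, featureCounts and DESeq2 and the build GRCm38 are named per the submitters' processing notes, while versions, annotation release and strand setting are not given in the sources used. The whole-series table and the per-library tables did not differ in any cell. Of 49585 genes, 49326 matched GENCODE M21, which gave the symbols. No 2 libraries agreed within sampling noise (smallest chi-square per degree of freedom 28.81 over 28 pairs).

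Counts were filtered with filterByExpr (minimum count 10, minimum total 15), scaled by TMM factors and tested with robust edgeR quasi-likelihood (edgeR 4.0.16, R 4.3.3), two-sided, with Benjamini-Hochberg adjustment over 22693 genes and a threshold of 0.05. DESeq2 1.42.0, limma voom 3.58.1, other scalings, no filter, a replicate block and left-out libraries were alternatives. The members and gene lists were chosen with earlier results of these data known. Named list genes are the 3 with the smallest unadjusted p in each list (1 of them in the red cell membrane list is not reported here), and the genes most like Hbb-bh1 and Hbb-bs are the 8 nearest named genes that are not members; others were chosen after their values were seen. Lengths, shared 75-base windows and motifs were computed with Python 3.11.15 from GENCODE M21 transcripts and RefSeq windows. On simulated counts with 22389 genes the test recovered 63% of 2-fold and 92% of 4-fold changes (100 genes each), with 9 false calls. The changes were placed only in genes above a mean count that Gata1 and Klf1 did not reach. Recovery for the members themselves was not tested. p-values and the edgeR intervals of the fold changes measure the spread between these libraries. Wilson intervals and floors (3 counts) cover counting error only.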

Additional observations from a re-analysis of the deposited data

Results flagged for a closer look

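Of 24 groups of 4 libraries examined, 4 held a library far from the others of its group by Dixon's test. Chance gives about 1 in 20 for independent, normally spread values. The groups here are not independent, since the embryonic sum contains Hba-x and Hbb-y. In the PBS-labelled group, uterus 2 lay far above the rest for Hba-x (120 CPM), for Hbb-y (74.4 CPM) and for the embryonic globin sum (308.1 CPM). In the DT-labelled group, Hbb-y in uterus 3 was set apart at 0.01999 CPM, which is 2 reads against 0 in the other 3 libraries. Any read beside 3 zeros is set apart by this test.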

How the results depend on the processing

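No member was called by edgeR under any setting tried, and DESeq2 called 1. Over all genes the 74 calls became 0 with a replicate block (280 at an edgeR unadjusted p under 0.05). Only numbers 1 and 4 occur in both groups, so the other libraries did not inform that contrast. The calls became 338 with DESeq2, 1 without PBS-labelled uteri 1 and 2, and 62 without DT-labelled uterus 1 as well. They ranged from 0 to 116 when 1 library was left out. Of the context genes DESeq2 called 11, and leaving out PBS-labelled uteri 1 and 2, with or without DT-labelled uterus 1, gave 1 (Ly6g). The embryonic sum (DT minus PBS, -87.13 CPM) ranged from -115.9 to -13.75 CPM with 1 library left out, the last without PBS-labelled uterus 2. It turned to 0.06423 CPM without PBS-labelled uteri 1 and 2 and to 0.1212 CPM without DT-labelled uterus 1 as well. The adult sum (18.17 CPM) ranged from 0.4415, without DT-labelled uterus 4, to 30.51 CPM, and was 44.53 and 56.71 CPM in those 2 settings. The embryonic share difference (-29.35 percentage points) ranged from -39.21 to -12.29, and was -0.2882 and -0.1892 in those 2 settings. With 1 library left out, log2 fold changes ranged from -0.297 to 0.664 for Hba-a1, -0.63 to 0.262 for Hba-a2, -1.31 to 0.33 for Gata1, -0.355 to 0.619 for Alas2, 0.168 to 0.886 for Hbb-bs, 0.012 (without DT-labelled uterus 4) to 1.075 for Hbb-bt, -1.755 to -0.446 (without PBS-labelled uterus 2) for Klf1 and -9.455 to -5.518 for Hbb-bh1. Signs also turned for Hba-a2 with limma voom (0.033), and for Hbb-bh1, Hba-a2, Gata1 and Klf1 without PBS-labelled uteri 1 and 2 (0.745, 1.262, 1.314, 0.172) and without DT-labelled uterus 1 as well (1.193, 1.531, 1.385, 0.091). The cause was not tested. The setting without PBS-labelled uteri 1 and 2 alone was chosen after seeing the data. Scaling by library size only moved the median over all genes tested to 0.12 (log2). Deviations of same-numbered libraries correlated at -0.491 for number 1 and 0.321 for number 4, so the numbers were not taken to pair females. Few reads limit Gata1, Klf1 and the embryonic globins outside PBS-labelled uteri 1 and 2.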

Other observations

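Other genes of the globin loci and of early blood gave values at low depth. Hbq1b, an alpha-type globin gene, had 1, 1, 2 and 0 reads in DT-labelled uteri 1, 3, 4 and 5, and 2, 11, 1 and 0 in PBS-labelled uteri 1, 2, 4 and 6. Etv2, a factor of the earliest blood and vessel precursors, had 1, 3, 1 and 10 reads across DT-labelled uteri, and 18, 24, 0 and 6 across PBS-labelled uteri.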
